A study of Mus musculus with 2 samples.

Results

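The joining (J) segments of the T cell receptor alpha and beta loci were taken as all genes whose GENCODE M21 symbol starts with Traj or Trbj, which gave 74 of 55536 annotated genes. The alpha locus contributed 60 Traj segments and the beta locus 14 Trbj segments. RNA came from regulatory T cells, primary cells of a 9-week-old male mouse that are labelled as originating from the whole organism. No treatment, strain, sorting scheme or pooling of animals is given in the sources used here. Polyadenylated RNA was sequenced as 2 technical libraries of 1 biological replicate, library 2 and library 1, both sheared by sonication and with a size range of 100 to 300. The only replicate comparison is therefore library 2 over library 1. Its binomial p-values cover counting error only, and no p-value here measures differences between animals.

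A T cell receptor gene is assembled in the developing thymocyte. The RAG recombinase joins 1 variable (V) segment to 1 J segment in the alpha locus, and a V, a diversity (D) and a J segment in the beta locus. The J segment codes for the end of the antigen-contacting loop and the strand that follows it, and RNA splicing then joins it to the constant region. The alpha locus has a long array of J segments, and a cell can recombine it again, replacing a joined J segment with one further downstream. Joining usually removes the DNA between the V and the J segment, while J segments downstream of the one used remain in the intron ahead of the constant exons. Regulatory T cells carry alpha-beta receptors and are defined by the transcription factor Foxp3.

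The Traj segments lay on the plus strand of chromosome 14 (GRCm38), from Traj61 at 54155005 to 54155076 to Traj1 at 54218814 to 54218842. They fill the interval between the delta constant gene Trdc (54142851 to 54148868) and the alpha constant gene Trac (54220521 to 54224206). The Trbj segments lay on chromosome 6 as 2 clusters of 7. Trbj1-1 to Trbj1-7 ran from 41533864 to 41535687, ahead of Trbc1 at 41538218. Trbj2-1 to Trbj2-7 ran from 41542754 to 41543856, ahead of Trbc2 at 41546730. The annotation lists 9 Traj and 1 Trbj as pseudogenes, and 0 members overlap another annotated gene.

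The sequences of the Traj segments with the highest levels are shown first, as the strand of the transcript in GENCODE M21, and they illustrate how short the measured rows were. Capitals mark a motif that fits the Phe-Gly-X-Gly turn found in most J segments. It was searched by its letters, in any reading frame, as TTN followed by GGN, then by any codon and then by GGN again. TTN covers Leu as well as Phe codons, so a match need not code for Phe-Gly-X-Gly.
Traj27: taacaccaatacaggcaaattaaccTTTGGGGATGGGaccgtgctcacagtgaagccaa
Traj18: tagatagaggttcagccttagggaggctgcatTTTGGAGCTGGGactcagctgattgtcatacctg
Traj23: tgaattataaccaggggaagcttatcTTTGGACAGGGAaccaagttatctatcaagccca
Traj22: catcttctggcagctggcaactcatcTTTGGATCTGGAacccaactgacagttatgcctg
Traj31: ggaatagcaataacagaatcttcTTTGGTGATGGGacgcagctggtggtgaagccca
Traj17: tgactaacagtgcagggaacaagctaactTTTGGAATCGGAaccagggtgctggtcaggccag

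Of the Traj segments that were read in both libraries 3 annotated as J genes do not hold these letters, and they are shown for contrast with the set above.
Traj19: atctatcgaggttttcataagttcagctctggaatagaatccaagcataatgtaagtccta
Traj20: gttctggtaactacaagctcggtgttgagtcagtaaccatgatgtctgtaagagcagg
Traj33: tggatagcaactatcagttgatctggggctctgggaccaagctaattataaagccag

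The Trbj segments are shorter still. The first 6 below are those that could hold a read, and the last 2 are examples of those that could not. Trbj1-3 is shown in its shorter annotated form.
Trbj1-3: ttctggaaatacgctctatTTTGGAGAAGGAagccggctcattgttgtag
Trbj1-4: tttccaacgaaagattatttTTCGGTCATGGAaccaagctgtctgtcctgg
Trbj1-5: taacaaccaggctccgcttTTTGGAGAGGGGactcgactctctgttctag
Trbj1-6: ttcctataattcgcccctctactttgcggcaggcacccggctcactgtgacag
Trbj2-1: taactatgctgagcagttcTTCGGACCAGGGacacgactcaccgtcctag
Trbj2-2: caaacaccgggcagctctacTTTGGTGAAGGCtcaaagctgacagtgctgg
Trbj1-1: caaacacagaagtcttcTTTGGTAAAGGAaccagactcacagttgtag
Trbj2-7: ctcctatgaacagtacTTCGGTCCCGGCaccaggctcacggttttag

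The motif was searched on both strands, and every match in a member was on the sense strand. It was found in 46 of the 60 Traj and 11 of the 14 Trbj. In 42 Traj it began 34 bases from the 3′ end, and in all 11 Trbj with the motif it began 31 bases from the 3′ end. Of windows of the first 61 bases of 141419 transcripts, 1.44% held the motif on the same strand and 2.59% on either strand. For windows of 49 bases, near the length of a Trbj, the shares were 1.12% on the same strand and 1.97% on either strand. In 9 Traj the motif matched at an overlapping pair of positions. The median GC content was 47.1% in Traj and 52.6% in Trbj.

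Members differed in whether a read could be counted at all. The deposited tables give each row an effective length, the number of start positions open to a read, and this was the row's length minus 49 bases (never below 0) in each library. By this rule a counted read takes up 50 bases inside the row, which leaves no place for a read across a V-J or J-C junction. How the alignment treated reads that run slightly past a junction is not given in the sources used here. The rows of the members were 29 to 72 bases long. Effective lengths ran from 5 to 23 bases in 56 Traj, with a median of 12, and were 0 in Traj51, Traj14, Traj8 and Traj1, which are all pseudogenes. Among Trbj, effective length was 0 in Trbj1-1, Trbj1-2, Trbj1-7, Trbj2-3, Trbj2-4, Trbj2-5, Trbj2-6 and Trbj2-7. Those 12 members had an estimated count of 0 in both libraries, which says nothing of their expression. Effective length 0 in both libraries applied to 16.2% of the members, against 0.131% of all annotated genes.

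TPM (transcripts scaled to a fixed total) divide a count by effective length, so 1 read was worth 2.12 to 48.7 TPM across the members in library 2 and 2.78 to 47.3 TPM in library 1. In Trac, whose effective length was 782 bases in library 2 and 774 bases in library 1, 1 read was worth 0.0623 TPM in library 2, against 0.0611 TPM in library 1. Any member with 1 read therefore passed 1 TPM. The 62 members with room for a read shared 0 of their 50-base words with transcripts of another gene, and the deposited posterior SD of the count was 0 for every member.

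**Figure D1:**
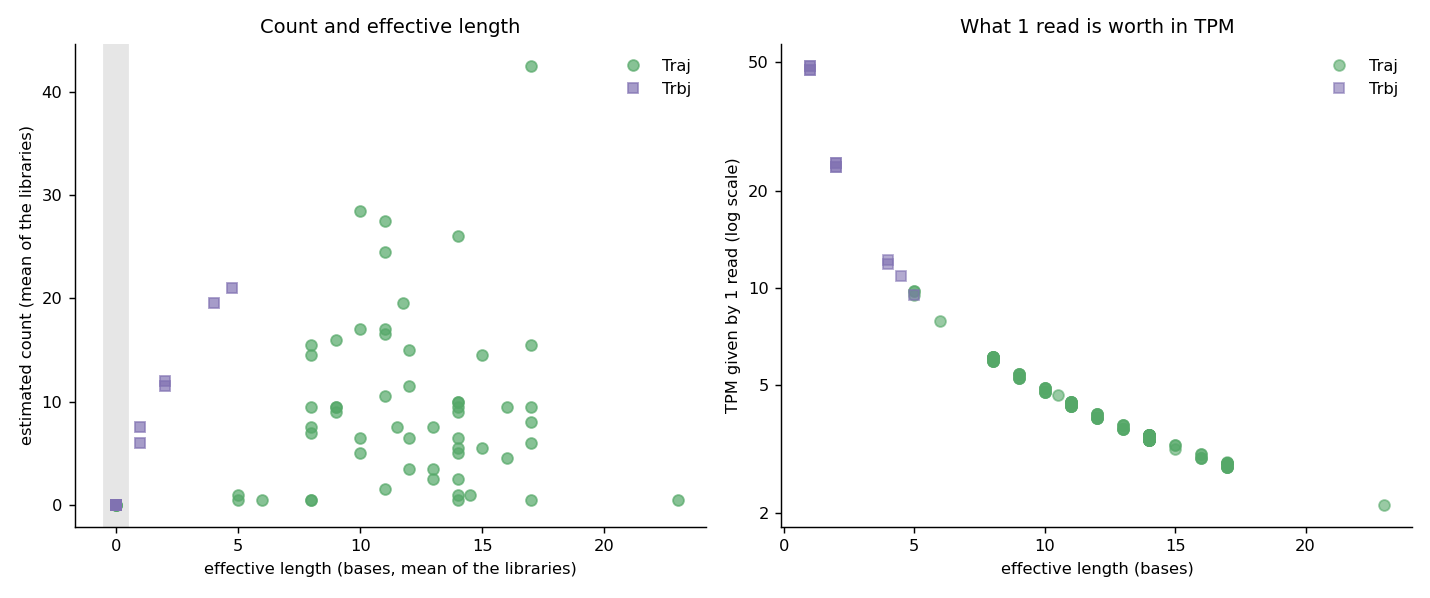
The left panel plots the mean estimated count of each member over the libraries against its effective length in bases (circles, Traj; squares, Trbj; grey band, effective length 0), and the right panel plots the TPM that 1 read gives against effective length on a log scale. All 12 members with effective length 0 sit at a count of 0, and 1 read is worth most in the Trbj rows with effective length 1.

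Library 2 held 32049199 estimated counts over annotated genes, and library 1 held 34697128. All 5 Treg markers passed 1 TPM in each library, as did all 7 T cell markers, with Foxp3 at 111 TPM in library 2, against 108 TPM in library 1. Both CD8 T cell markers passed 1 TPM too, Cd8b1 at 23.3 TPM in library 2, against 24.1 TPM in library 1, and Cd8a at 2.84 TPM in library 2, against 1.69 TPM in library 1. Of the gamma-delta T cell markers measured, Trdc was at 3.87 TPM in library 2, against 3.98 TPM in library 1, and Sox13 at 0 in library 2 and 0.08 TPM in library 1. All 6 B cell markers passed 1 TPM, at a summed 881 TPM in library 2, against 1010 TPM in library 1, most of it Ighm at 813 TPM in library 2, against 930 TPM in library 1. The part of such cells in any value below was not tested.

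Members were read sparsely. The 74 rows held 567 reads in library 2 and 659 in library 1, or 17.7 CPM in library 2 and 19.0 CPM in library 1 (counts per 1000000 estimated counts). The Traj rows held 492 reads in library 2 and 579 in library 1, and the Trbj rows 75 reads in library 2 and 80 in library 1. Both libraries read 52 members, 46 Traj and 6 Trbj, and 10 Traj were read in 1 library only (7 in library 2 and 3 in library 1). No member with an effective length above 0 went unread in both libraries. In bulk RNA, fewer cells that use a segment and less RNA per cell cannot be told apart. The gene rows do not separate reads from spliced receptor mRNA, from unspliced RNA and from unrearranged loci, and their parts were not tested.

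Among Traj, the 6 segments with the highest mean TPM all lay between Traj31 and Traj17. Traj27 had 28 reads in library 2 and 29 in library 1, which gave 136 TPM in library 2, against 137 TPM in library 1. Traj18, the J segment of the invariant alpha chain of natural killer T cells, had the most reads, 37 in library 2 and 48 in library 1. Its row has an effective length of 17 bases, so its level was 106 TPM in library 2, against 134 TPM in library 1. The exact Poisson interval for its count, at 95% and covering counting error only, ran from 26.1 to 51.0 in library 2 and from 35.4 to 63.6 in library 1. Its level overlapped that of Traj23, the next in order.

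Traj23 had 23 reads in library 2 and 32 in library 1, at 102 TPM in library 2, against 138 TPM in library 1. Traj22 had 24 reads in library 2 and 25 in library 1, at 106 TPM in library 2, against 108 TPM in library 1. Traj31 had 12 reads in library 2 and 19 in library 1, at 73.1 TPM in library 2, against 112 TPM in library 1. Traj23, Traj22 and Traj31 exchanged places between the libraries, so their order is not fixed by these data. Traj17 had 22 reads in library 2 and 30 in library 1, at 76.6 TPM in library 2, against 101 TPM in library 1. Traj21 had 15 reads in library 2 and 14 in library 1, at 91.4 TPM in library 2, against 82.8 TPM in library 1.

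The remaining segments named by rank were close to each other. Traj12 stood at 65.0 TPM in library 2, against 105 TPM in library 1, from 12 reads in library 2 and 20 in library 1. Traj30 had 16 reads in library 2 and 18 in library 1, at 78.0 TPM in library 2, against 85.2 TPM in library 1. Traj49 had 16 reads in library 2 and 23 in library 1, at 74.1 TPM in library 2, against 83.7 TPM in library 1. Traj37 and Traj15 were among the 10 highest by reads but not by TPM. Traj37 had 17 reads in each library, and Traj15 had 18 in library 2 and 15 in library 1. The rankings by reads and by TPM shared 8 of their 10 segments. The 5 Traj with the most reads held 27.8% ± 0.770 (SD, n = 2 libraries) of Traj reads and the 10 with the most held 43.8% ± 0.774.

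Read density differed along the locus. The 20 most upstream segments, Traj61 to Traj42, took 20.5% ± 0.105 of Traj reads (SD, n = 2 libraries), although they held 36.3% ± 0.296 of the effective bases. The exact binomial interval for that share ran from 17.0% to 24.4% in library 2 and from 17.2% to 23.9% in library 1. The 20 middle segments, Traj41 to Traj22, took 42.4% ± 1.57 of reads, and the 20 downstream segments, Traj21 to Traj1, took 37.2% ± 1.67. Per effective base, the upstream 20 held 0.413 reads in library 2 and 0.474 in library 1. The middle 20 held 0.930 reads per base in library 2 and 1.04 in library 1, and the downstream 20 held 0.872 in library 2 and 1.09 in library 1. The middle and downstream groups overlapped, and the upstream group lay below both in each library. These bases and densities include pseudogenes, most of them upstream. Traj61, Traj60, Traj55 and Traj54 have effective lengths of 23, 5, 14 and 5 bases. They held 1 to 2 reads each in library 2 and 0 to 1 in library 1. The middle group includes the pseudogene Traj36, with an effective length of 14 bases. Densities over J genes only were not computed.

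Runs of 10 neighbouring segments resolved this further. Traj61 to Traj52, which include the pseudogenes Traj61, Traj60, Traj55 and Traj54, held 0.268 reads per effective base in library 2 and 0.309 in library 1. Traj51 to Traj42 held 0.601 in library 2 and 0.682 in library 1, and Traj41 to Traj32 held 0.667 in library 2 and 0.700 in library 1. Traj31 to Traj22 held 1.22 in library 2 and 1.41 in library 1, and Traj21 to Traj12 held 1.38 in library 2 and 1.69 in library 1. The last run, Traj11 to Traj1 next to Trac, held 0.379 in library 2 and 0.515 in library 1. The 2 highest runs overlapped each other and lay above all the other runs in each library. They did so also without the leading segment of each run, at 1.06 in library 2 and 1.26 in library 1 for Traj31 to Traj22 without Traj27, and 1.22 in library 2 and 1.46 in library 1 for Traj21 to Traj12 without Traj18.

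**Figure D2:**
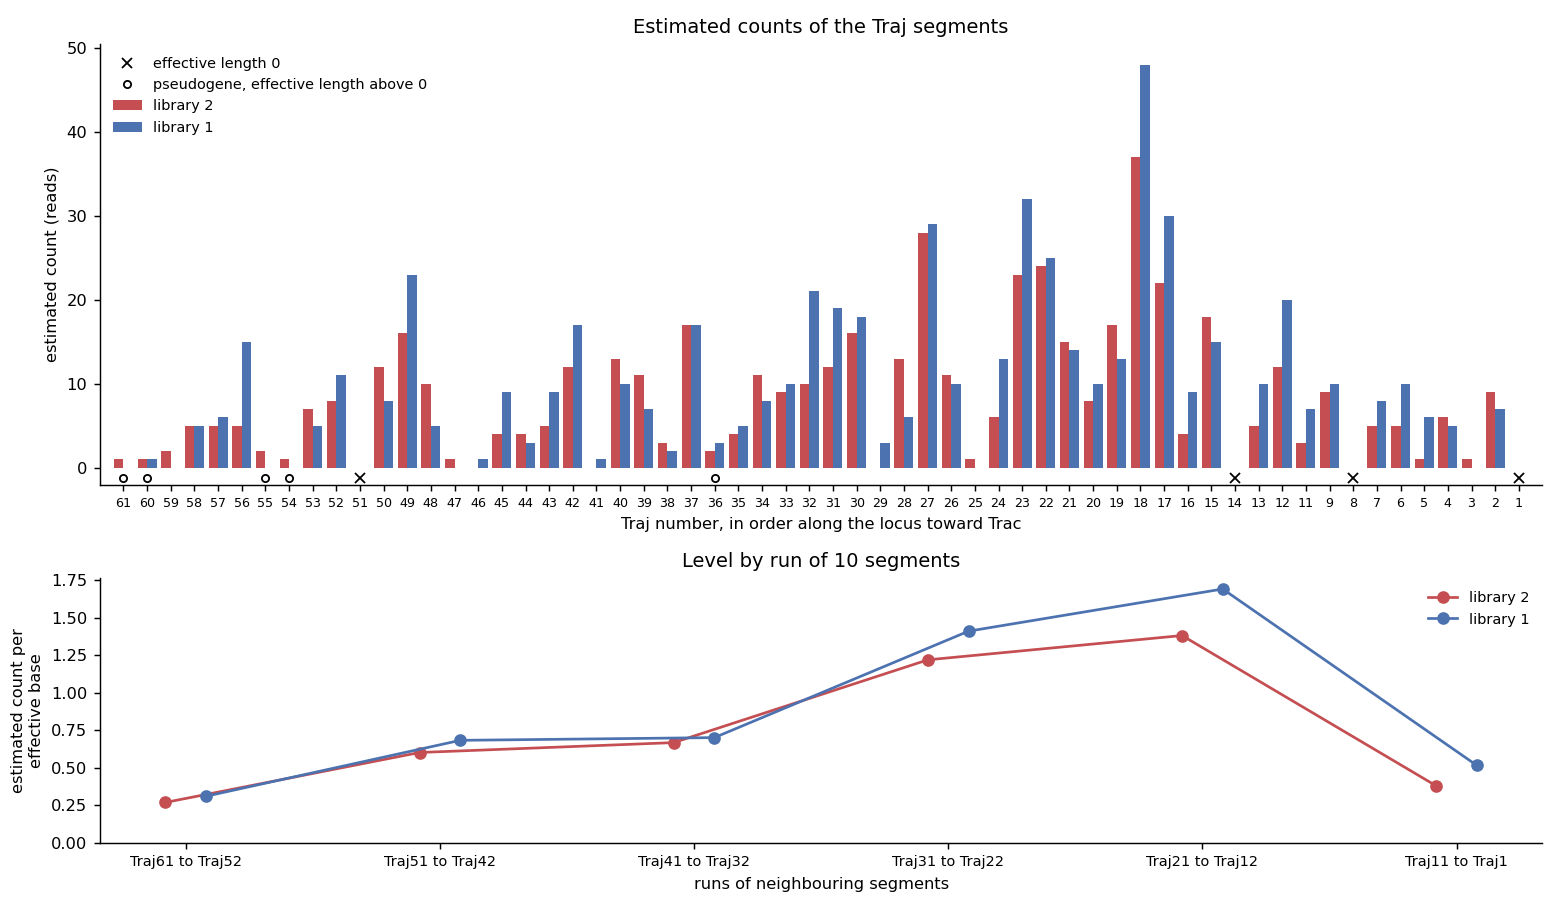
The upper panel plots the estimated count of each Traj (red, library 2; blue, library 1) in its order along the locus toward Trac, with crosses for effective length 0 and open circles for other pseudogenes. The lower panel plots reads per effective base for 6 runs of 10 segments, which are highest in Traj31 to Traj22 and Traj21 to Traj12 and low at both ends in both libraries.

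The same shape stood in rank correlations across segments, which share libraries and depth and are given as a description. Mean TPM against order toward Trac had a Spearman rho of 0.49 over the 39 readable segments of the upstream and middle groups, and -0.78 over the 17 readable segments of the downstream group. Over all 56 readable Traj the rho was 0.35. Counts against effective length had a rho of -0.027 over the same 56. Counts in library 2 and library 1 had a rho of 0.85 and a Pearson r of 0.90 across the 56 segments.

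The segments at the ends of the array differed. Traj61, an annotated pseudogene with the longest row, had 1 read in library 2 and 0 in library 1, and Traj60, also a pseudogene, had 1 read in each. At the other end Traj2 had 9 reads in library 2 and 7 in library 1, and the pseudogene Traj1 had no effective length. The 5 pseudogenes with an effective length above 0 held 7 reads in library 2 and 4 in library 1, against 485 reads in library 2 and 575 in library 1 over the 51 segments annotated as J genes. Traj29 was the only member with 0 reads in 1 library and at least 3 in the other, with 0 in library 2 and 3 in library 1. The exact Poisson interval for the count of 0 in library 2 reached 3.69 reads.

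Both Traj segments of invariant T cells were read. Traj33, which joins Trav1 in the alpha chain of mucosal-associated invariant T cells, had 9 reads in library 2 and 10 in library 1, at 54.8 TPM in library 2, against 59.1 TPM in library 1. Markers of these cell types are given beside them, and their part in these reads was not tested. Zbtb16, the transcription factor of invariant T cells, was at 0.02 TPM in each library, and Klrb1c (NK1.1) at 1.68 TPM in library 2, against 1.73 TPM in library 1. Trav11, the V segment that pairs with Traj18 in natural killer T cells, was at 10.6 TPM in library 2 and was listed at 0 in library 1. Its estimated count in library 2 was 64.15, which is not a whole number, and its M4 count was 0 in both libraries. Whether reads were divided between Trav11 and similar V rows was not tested, so these values do not show a difference between the libraries. Trav1 was at 6.79 TPM in library 2, against 8.62 TPM in library 1. Which V segment a Traj18 or Traj33 read was joined to is not recorded in these tables.

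Segments annotated as J genes were set side by side by motif. Of the 44 Traj J genes with the motif, 41 were read in both libraries, with a median of 9 reads in library 2 and 9.5 in library 1. Of the 7 without it, 3 were read in both libraries, and the median was 2 reads in library 2 and 3 in library 1. The 3 were Traj33, Traj19 with 17 reads in library 2 and 13 in library 1, and Traj20 with 8 reads in library 2 and 10 in library 1. The other 4 were Traj3, Traj29, Traj41 and Traj59, at 0 to 2 reads in library 2 and 0 to 3 in library 1. No test was made of this difference, and the absence of the letters says only that they are not in the row.

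Trbj rows had few open positions but high levels. Trbj1-3 had 20 reads in library 2 and 22 in library 1, at 217 TPM in library 2, against 208 TPM in library 1. Trbj1-6 had 19 reads in library 2 and 20 in library 1, at 231 TPM in library 2, against 237 TPM in library 1. Trbj1-4 had 13 reads in library 2 and 10 in library 1, at 317 TPM in library 2, against 237 TPM in library 1. Trbj1-6 and Trbj1-4 overlapped in TPM over the libraries, and Trbj1-3 lay below both. Its exact Poisson interval, 12.2 to 30.9 reads in library 2 and 13.8 to 33.3 in library 1, is wide beside that gap.

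Trbj2-2 had 11 reads in library 2 and 13 in library 1, at 268 TPM in library 2, against 307 TPM in library 1. Trbj2-1 had 8 reads in library 2 and 7 in library 1, and since its effective length was 1 base those reads gave 390 TPM in library 2, against 331 TPM in library 1. Trbj1-5, also with an effective length of 1, had 4 reads in library 2 and 8 in library 1, at 195 TPM in library 2, against 378 TPM in library 1. The exact Poisson interval for Trbj1-5 ran from 1.09 to 10.2 reads in library 2 and from 3.45 to 15.8 in library 1, so these counts overlapped. Reads per effective base were 4.0 to 8.0 in the 6 Trbj in library 2, against at most 2.80 in any Traj. In library 1 they were 4.4 to 8.0, against at most 2.91 in any Traj. Across the 6 Trbj, counts against effective length had a rho of 0.97.

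A second deposited gene table, made from genome alignments on GENCODE M4, gives whole counts for 13 Trbj and for none of the Traj. Every one of the 13 was read there in both libraries, at 95 to 165 counts in library 2 and 87 to 170 in library 1. The 7 of them that had effective length 0 in the M21 table, Trbj1-1, Trbj1-2, Trbj1-7, Trbj2-3, Trbj2-4, Trbj2-5 and Trbj2-7, held 842 counts in library 2 and 896 in library 1, 51.8% ± 0.595 of all Trbj counts (SD, n = 2 libraries). Trbj1-2 had 156 in library 2 and 170 in library 1, and Trbj2-7 had 127 in each. Among the rows that the M21 table could read, Trbj1-4 had 165 in library 2 and 167 in library 1, and Trbj1-5 had 144 in library 2 and 166 in library 1. The lowest was Trbj2-1, at 95 in library 2 and 87 in library 1. Trbj2-6 has no value in that table that could be used here.

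The remaining rows lay between these. Trbj1-1 had 112 counts in library 2 and 120 in library 1, Trbj1-3 139 in library 2 and 154 in library 1, Trbj1-6 148 in library 2 and 149 in library 1, and Trbj1-7 118 in library 2 and 141 in library 1. Trbj2-2 had 106 in library 2 and 97 in library 1, Trbj2-3 102 in library 2 and 111 in library 1, Trbj2-4 110 in library 2 and 105 in library 1, and Trbj2-5 117 in library 2 and 122 in library 1. Trbj1-7 and Trbj1-6, the Trbj annotated as J genes without the motif, were both counted there. M4 counts of abundant genes were far below their estimated counts. Trac had 1269 counts in library 2 and 1359 in library 1 there, against estimated counts of 34638 in library 2 and 40001 in library 1 in the M21 table. Trbc2 had 752 in library 2 and 766 in library 1, against estimated counts of 50352 and 51802. Ighm had 3155 in each library, against 26235 in library 2 and 30903 in library 1. Whether M4 counts of the Trbj rows, and shares or orders drawn from them, follow level was not tested.

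The division between the clusters depended on the unit. Trbj1 held 74.8% ± 0.236 of Trbj reads in the M21 table (SD, n = 2 libraries), but also 79.6% ± 0.498 of the effective bases. Its share of summed TPM was 60.9% ± 2.16, and its share of M4 counts, over 7 Trbj1 and 6 Trbj2 rows, was 61.0% ± 1.60.

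**Figure D3:**
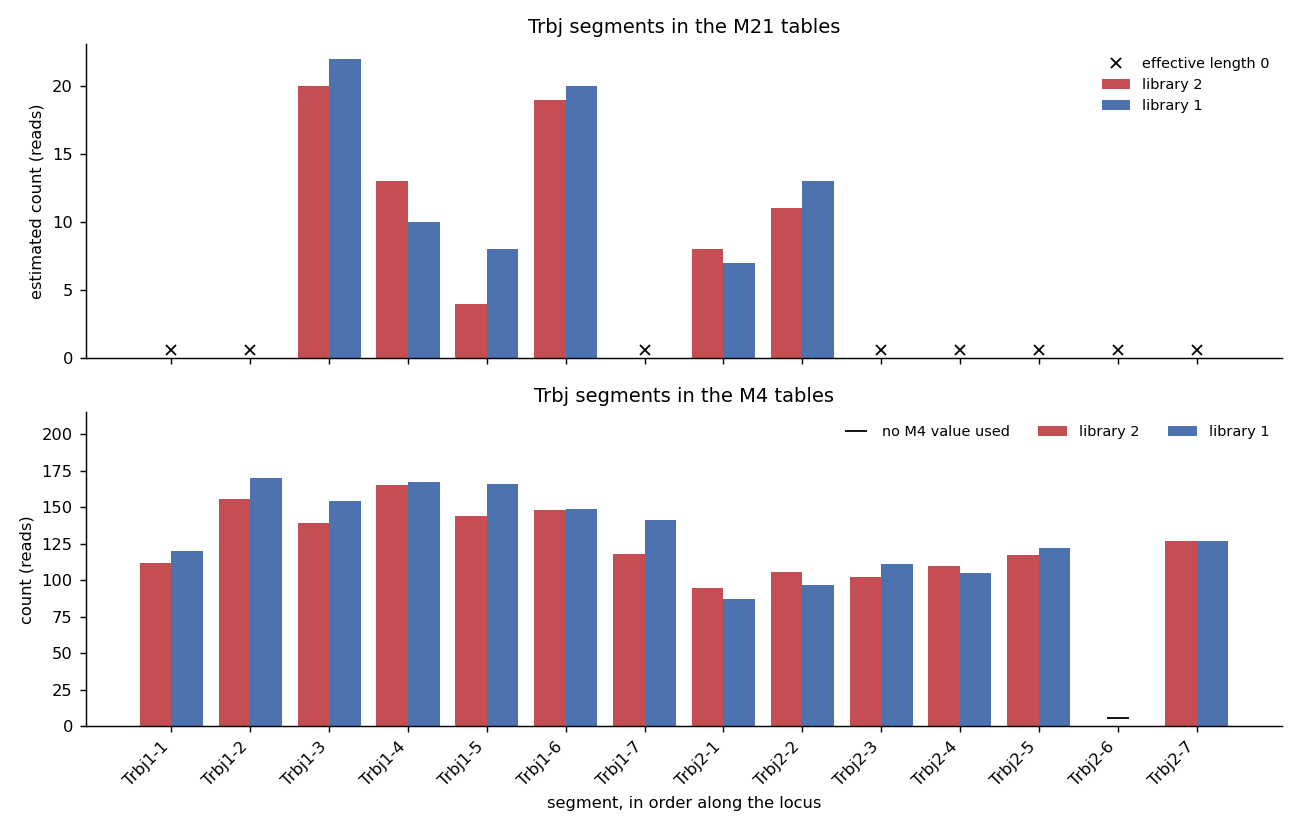
Counts of each Trbj (red, library 2; blue, library 1) in the M21 table (upper panel, estimated counts, crosses for effective length 0) and the M4 table (lower panel, whole counts, dash for no value used). The 8 rows at 0 in the upper panel include 7 with 102 to 170 counts in the lower panel.

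Summed over each locus, J levels were set against the constant regions to which they are spliced. In reads, Traj came to 1.43% ± 0.0191 of Trac (SD, n = 2 libraries). Per effective length, summed Traj stood at 2085 TPM in library 2, against 2359 TPM in library 1, and Trac at 2158 TPM in library 2, against 2444 TPM in library 1. The ratio of Traj to Trac in TPM was 96.6% ± 0.0554, so these summed values were nearly equal in both libraries. The Traj side rests on 492 reads in library 2 and 579 in library 1 over short effective lengths. The SD between the libraries does not hold the counting error of those reads. Effective length counts every start position of the annotated row, and how much of a row a joined receptor keeps was not measured. Reads from unspliced RNA and unrearranged loci are not separated either. Whether the ratio measures J segments per constant region was not tested. Trbj summed to 1618 TPM in library 2, against 1698 TPM in library 1, from 6 of its 14 rows, and was 29.9% ± 0.719 of Trbc1 and Trbc2 together. Those constant genes summed to 5509 TPM in library 2, against 5588 TPM in library 1. Trav rows summed to 1530 TPM in library 2, against 1610 TPM in library 1, and Trbv rows to 2619 TPM in library 2, against 2585 TPM in library 1.

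**Figure D4:**
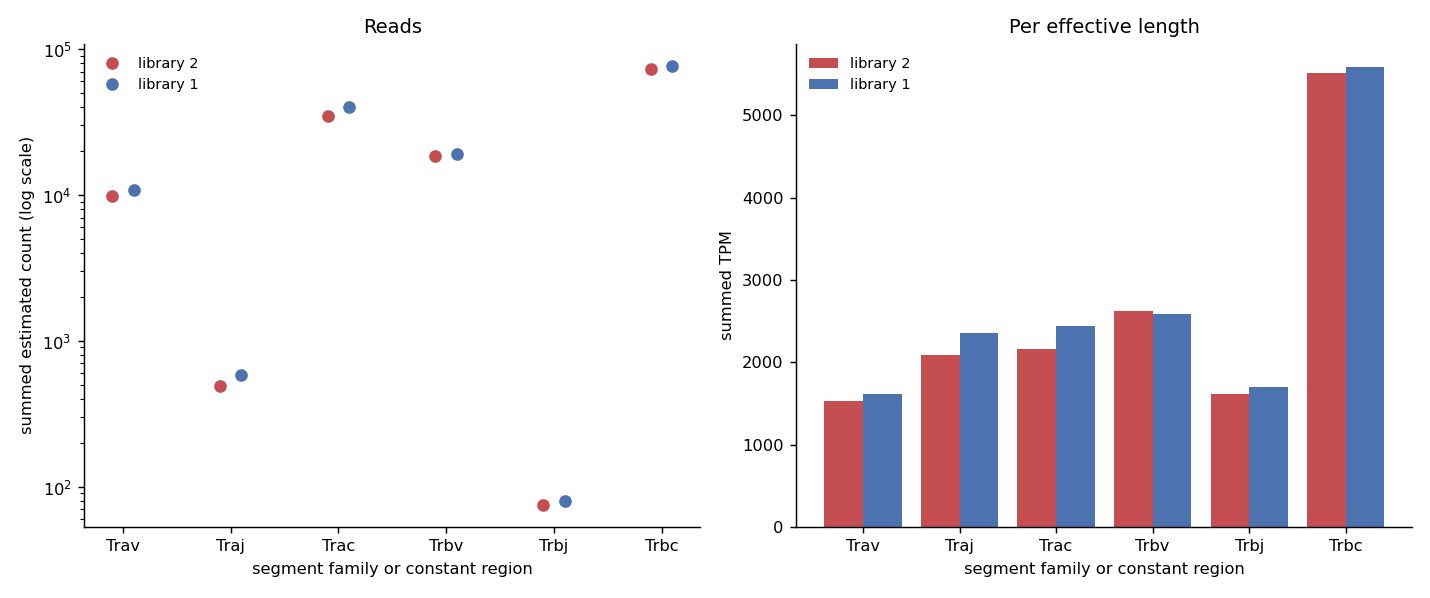
Summed estimated counts on a log scale (left) and summed TPM (right) of V, J and constant rows of the alpha and beta loci in library 2 (red) and library 1 (blue). Traj lies far below Trac in reads and next to it in TPM in both libraries.

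No member was called between the libraries. An exact two-sided binomial test on rounded counts, with p-values adjusted by the Benjamini-Hochberg method over 18749 genes, called 0 of the 46 members with a summed count of at least 10, and 28 members fell under that filter. Over all genes tested it called 36.4%, 17.2% higher in library 2 and 19.2% higher in library 1. Over the 6174 other genes within the members' range of summed counts (10 to 85) it called 22.6%. At an unadjusted p under 0.05 it found 1 member, against 44.1% of all genes. That member, named after its values were seen, was Traj56, with 5 reads in library 2 and 15 in library 1 (log2 ratio -1.38, binomial p = 0.0446, adjusted p = 0.104, exact test). edgeR's exact test with a common dispersion called 0 members, against 2.98% of all genes, and found 0 at an unadjusted p under 0.05, against 10.1% of all genes. Of these shares, only the 22.6% is limited to the members' range of summed counts. The shares over all genes include genes with more reads, and they are not matched for count.

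The log2 ratios of the 46 members had a median of -0.04, against 0.00097 over all genes tested. They stood above 0 in 20 members and below 0 in 26, and ran from -1.38 to 1.17. Their SD was 0.59, against 1.64 in the other genes of that range of counts, and their median summed count was 19.5, against 23 in those other genes. On M4 counts the binomial test called 0 of 13 Trbj, against 14.4% of the 12147 genes tested, and found 0 at an unadjusted p under 0.05, against 26.9%. Neither M4 share is matched for count.

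A pair of forms was annotated for 6 members, and the deposited transcript table splits their reads between the forms. Capitals mark the bases that the longer form has and the shorter form lacks, in 4 of these members.
Traj49: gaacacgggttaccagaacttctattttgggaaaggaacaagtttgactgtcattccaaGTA
Traj48: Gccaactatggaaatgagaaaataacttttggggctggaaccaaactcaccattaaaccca
Traj57: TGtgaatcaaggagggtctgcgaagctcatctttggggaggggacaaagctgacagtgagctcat
Trbj1-3: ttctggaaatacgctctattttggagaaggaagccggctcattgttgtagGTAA

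In Traj49, the longer form held 3.42 estimated reads in library 2 and 22.97 in library 1, and the shorter form 12.58 in library 2 and 0.03 in library 1. In Traj48 all 10 reads of library 2 went to the shorter form and all 5 reads of library 1 to the longer. In Traj57 all 5 reads of library 2 went to the shorter form and all 6 of library 1 to the longer. Trbj1-3 differed from these, with 19.43 of its 20 reads in library 2 and all 22 in library 1 on the longer form, which has 4 extra bases at its 3′ end. Both reads of Traj59 in library 2 also went to its longer form, and it had no read in library 1. The gene-level counts do not depend on this split, but their TPM does, since the forms differ in effective length. The forms differ by only 1 to 4 bases at an end, so a read within the shared bases fits both forms. For such reads the split is an estimate. In Trbj1-3 the effective lengths are 1 base in the shorter form and 5 in the longer. Most start positions on its longer form therefore take in extra bases. Which kind of RNA the reads on those bases came from was not tested. Whether form use differed between the libraries was not tested either.

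The machinery of recombination and of the receptor complex gives the context of these rows. Of 12 recombination genes, 10 passed 1 TPM in each library, and the 2 that did not are Rag1 and Rag2, the recombinase itself. Rag1 had no reads in library 2 and 1 in library 1, and Rag2 had none in library 2 and 2 in library 1. Dntt, the polymerase that adds untemplated bases at the joints, was at 1.15 TPM in library 2, against 1.5 TPM in library 1. The other 9 are repair factors of end joining and the DNA-bending proteins Hmgb1 and Hmgb2, which are not particular to lymphocytes. They ran from Lig4, at 3.73 TPM in library 2 against 3.35 TPM in library 1, to Hmgb1, at 175 TPM in library 2 against 182 TPM in library 1. Of the 5 genes of the CD3 complex and the pre-receptor, the 4 CD3 chains were detected, and Ptcra, the thymocyte pre-receptor chain, was at 0.04 TPM in library 2, against 0 in library 1.

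The other J and D segments of antigen receptor loci were also short rows. Of 24 such rows, 9 had an effective length above 0 and 5 were read in both libraries, with 12 reads in library 2 and 13 in library 1 in total. The heavy chain segments (Ighj) held 8 reads in library 2 and 9 in library 1, the gamma segments (Trgj) 3 reads in library 2 and 4 in library 1, and the delta segments (Trdj) 1 read in library 2 and 0 in library 1. Both beta D segments had an effective length of 0, and the M4 table gave them 92 counts in library 2 and 100 in library 1. It gave the Ighj segments 115 counts in library 2 and 154 in library 1.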

How the data were processed

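Gene and transcript tables on mm10 with GENCODE M21, and a second gene table on GENCODE M4, were used as deposited for each library. Per the file headers, the M21 tables hold estimated counts (expected counts), TPM, FPKM, lengths and effective lengths, and posterior SDs, treated as scores, as are the posterior interval bounds. The deposited M4 tables hold whole counts from genome alignments. For aligner, quantifier, read length and strandedness the entry is: not given in the sources used here. The libraries share 1 biosample, so they are technical replicates. Rows that name no gene were left out (0.212% of estimated counts in library 2 and 0.197% in library 1).

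Members and lists were chosen with earlier results of these data known. Expected counts were rounded and compared by an exact binomial test with TMM library sizes (edgeR 4.0.16, R 4.3.3), for genes with 10 or more counts in sum, at an adjusted p of 0.05. With 1 library a side, the quasi-likelihood fit of edgeR leaves no residual degrees of freedom. The procedure was tested on simulated data, with changes planted only in genes with more summed counts than any member. That test gives no measure of how well changes in the members would be called. DESeq2 1.42.0 size factors, edgeR's exact test, other filters and other units were alternatives. Summaries used Python 3.11.15, pandas 2.3.3 and SciPy 1.17.1. Sequences are those of the GENCODE M21 transcripts, and all 74 members matched. Named segments were the 10 Traj highest by count and by TPM, all Trbj, members with effective length 0 or 1, the first and last pair of Traj, Traj18, Traj33, any member called, and any at 0 in 1 library with at least 3 reads in the other. The comparison with other genes in the members' range of counts and the M4 counts were added after seeing the data. The runs of 10 segments, the values without the leading segment of a run, and the rho split by group were also not planned beforehand. Intervals and floors cover counting error only.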

Additional observations from a re-analysis of the deposited data

How the results depend on the processing

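Of 70 alternative values, 19 moved and are given here. The values with either library left out lie within the spread by construction for the shares, rho and ratios, since 2 libraries set that spread, and they are no sign of stability. No member was called under any normalization, filter, rounding, estimator or error model run, while calls over all genes were 6834 by the binomial test, 559 by edgeR's exact test and 1747 on M4 counts (added after seeing the data). Detected members numbered 52, and 21 at 10 reads or more in both libraries. The upstream share of Traj became 18.5% by TPM, 22.2% without Traj18 and 20.1% over J genes only. The middle share became 44.7% by TPM and 46.0% without Traj18, and the downstream share 31.8% without Traj18. The 5 leading Traj held 25.7% by TPM and, without Traj18, 25.5%. The Trbj1 share became 60.9% by TPM, 65.5% without Trbj1-3 and 100.0% with an effective length of at least 5 in library 1, which Trbj1-3 alone has, so that value rests on 1 segment. Traj over Trac was 96.6% and Trbj over Trbc 29.9% by TPM and by FPKM alike, since both divide by effective length. The highest posterior SD over the posterior mean was 0, against a median of 0.316 for 1 over the square root of the count. Leaving out either library gave 55 to 59 detected members, shares along the Traj array of 20.4% to 20.5%, 41.3% to 43.5% and 36.0% to 38.3%, a Trbj1 share of 74.7% to 75.0%, a leading share of 27.2% to 28.3%, a rho of 0.30 to 0.40, and ratios to constant genes of 1.42% to 1.45% and 0.102% to 0.104% in reads. The library comparison cannot be run without either library. No paired analysis was possible because there is 1 group. Under 10 reads in at least 1 library were held by 53 of 74 members. Of these, 41 could hold a read, and the other 12 have effective length 0 and would have a count of 0 at any depth.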
